A study of Mus musculus with 18 samples.

Results

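The Trp channels are a family of cation channels, and 9 of them that are known from skin keratinocytes or from sensory neurons are described here: Trpa1, Trpv1, Trpv2, Trpv3, Trpv4, Trpm3, Trpm4, Trpm8 and Trpc1. They were taken as the probe sets of the array that are paired with exactly 1 gene, where that gene is on this list. Each of the 9 genes had 1 such probe set, of 21789 probe sets for 19938 genes on the array. The list was not drawn from the values of any comparison, though it was chosen with earlier results of these data known. Expression was measured on 18 Affymetrix mouse gene arrays, with 3 biological replicates in each of 6 groups. The groups were epidermis of CFA-injected mutant and control mice, epidermis of naïve mutant and control mice, and dorsal root ganglia (DRG) of naïve mutant and control mice. CFA is complete Freund's adjuvant, an emulsion that inflames the hindpaw into which it is injected, and no array came from a paw injected with vehicle.

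Mutant mice were K14Cre-Trpa1fl/fl, in which Cre made under the keratin 14 promoter removes floxed exons of Trpa1 from keratinocytes. Control mice were K14Cre-Trpa1+/+, which the labels call wild type, so that mutant and control mice both carried K14Cre. All were adult males of a mixed background of C57BL/6, CBA and Swiss Webster, and the 2 genotypes were bred as separate colonies, so the floxed allele cannot be told apart from other differences between the colonies. Epidermis came from the glabrous hindpaw after dispase, and DRG from lumbar levels.

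Trp channels open to temperature, irritant chemicals, osmotic or mechanical stimuli or intracellular messengers, and let sodium and calcium ions into the cell. In sensory neurons, Trpa1 (irritants), Trpv1 (heat and capsaicin), Trpm3 (heat) and Trpm8 (cold and menthol) turn such stimuli into electrical signals. In keratinocytes, Trpv3 and Trpv4 are the best known warmth-sensitive members, and Trpv3 acts together with the EGF receptor in cornification and hair growth.

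The labelled tissues carried the transcripts of their main cells. Of 14 keratinocyte markers measured, all 14 lay above background on every array of naïve epidermis, and of 17 nociceptor markers all 17 did on every DRG array. However, 11 of the 17 nociceptor markers also lay above background on every naïve mutant epidermis array, and 12 on every naïve control one. In each DRG group 6 of the 14 keratinocyte markers did so on every array. A signal above background is thus no mark of a tissue's main cells by itself. Background was set on each array at the 95th percentile of 1210 probe sets of odorant and vomeronasal receptors, which lay at 4.58 to 4.79 log2 units on the 12 epidermis arrays and at 5.77 to 5.94 on the 6 DRG arrays. Array means also differed by tissue (6.61 to 6.64 log2 units in DRG, and 5.67 to 5.71 in epidermis), so levels are compared only within a tissue, and between tissues only the position against background and the percentile rank within an array are given. Keratinocyte markers averaged 6.32 log2 units on the array of naïve DRG mutant replicate 1 and 6.02 on that of control replicate 3, against 5.74 to 5.86 on the other 4 DRG arrays.

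Trpa1, the gene targeted in the mutant, was above background on 0 of 12 epidermis arrays and on 6 of 6 DRG arrays. In epidermis its log2 signal was 3.93, 3.78 and 3.68 in CFA mutant mice and 3.89, 3.86 and 3.79 in CFA control mice, and 3.91, 3.84 and 3.77 in naïve mutant mice and 3.61, 3.97 and 3.82 in naïve control mice. All 4 groups overlapped, and since every value lay below background no fold change is given for epidermis. In DRG the signal was 8.84, 8.44 and 8.54 in mutant mice, against 8.99, 8.89 and 9.08 in control mice, or 2.67 to 3.20 log2 units above background. Where the probes of this set lie relative to the floxed exons was not analysed here, so its level is no check of the excision, and in epidermis it is at background in both genotypes.

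**Figure D1:**
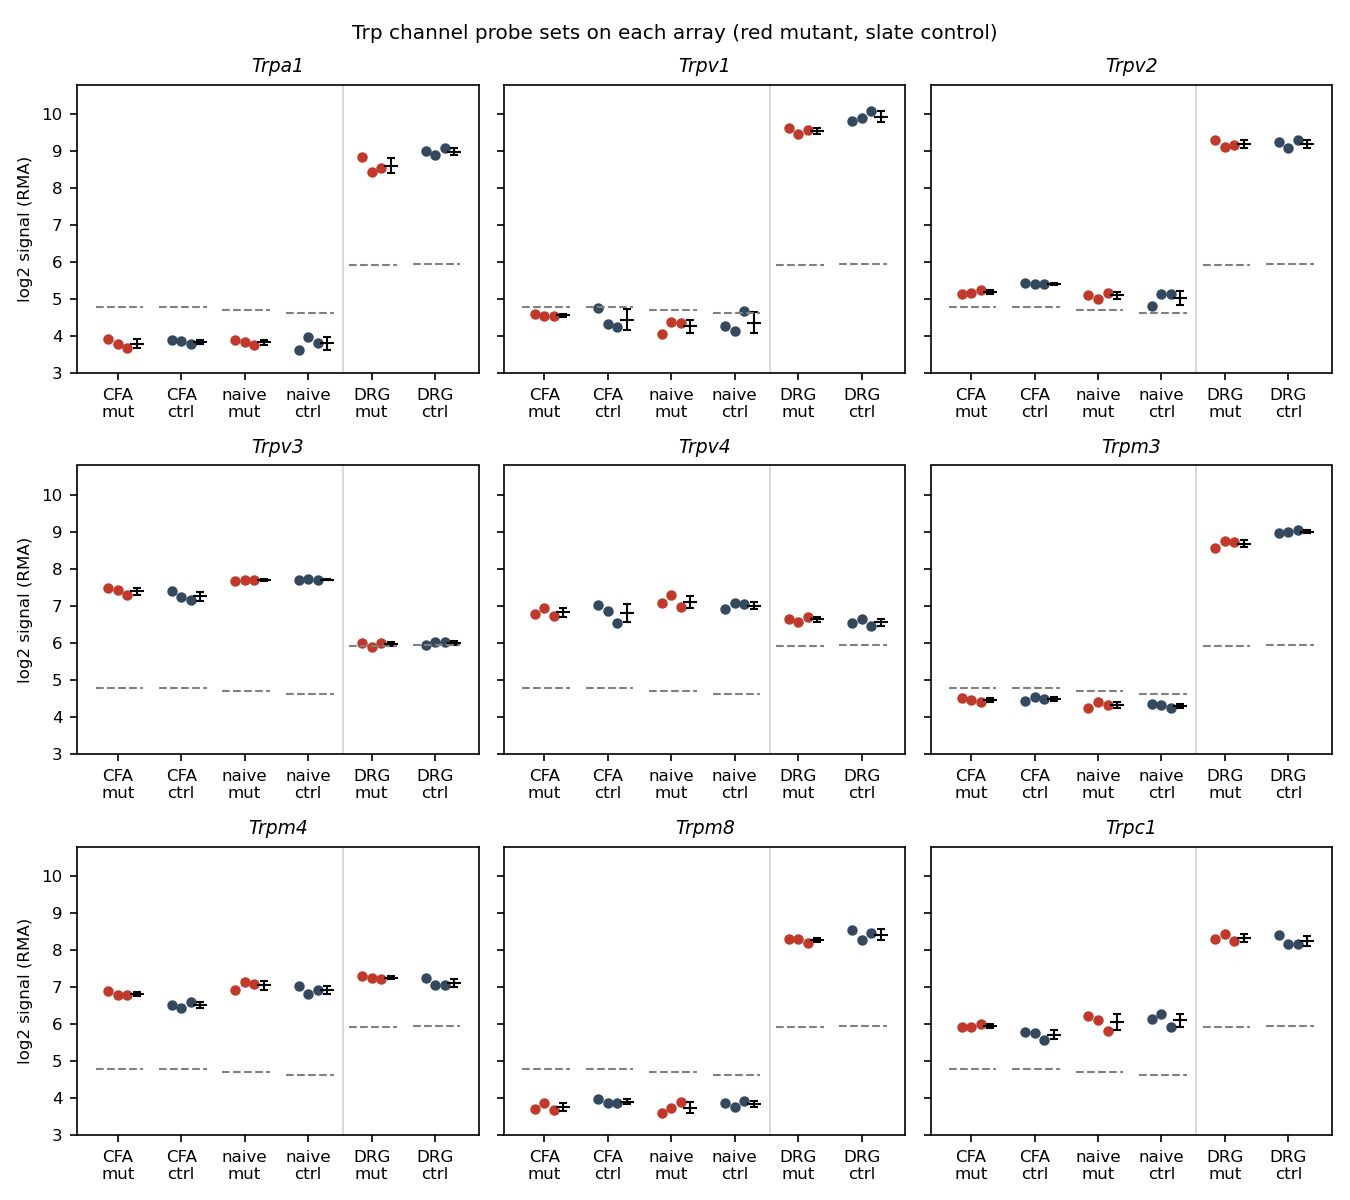
Log2 signal of each Trp channel probe set (y axis) on each array, for the 6 groups (x axis). Points are arrays (red mutant, slate control), black marks are the mean ± SD of 3 arrays, and dashed lines are the highest array background in the group. Trpa1, Trpm3 and Trpm8 lie below the dashed lines in epidermis and well above them in DRG, while Trpv3 lies far above background in epidermis and just above it in DRG.

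Of the 9 channels, 3 (Trpa1, Trpm3 and Trpm8) were above background on all 6 DRG arrays and on 0 of 12 epidermis arrays, and 5 (Trpv2, Trpv3, Trpv4, Trpm4 and Trpc1) were above background on every array of both tissues. Over all probe sets, 62.1% to 64.2% lay above background on an epidermis array and 62.2% to 64.3% on a DRG array. A signal above background was thus common, and the counts of genes above it are a description only. Trpv1 was above background on 6 of 6 DRG arrays and on 1 of 12 epidermis arrays, naïve control replicate 3, at 4.67 log2 units and 0.05 above that array's background. An array holds more than neurons or keratinocytes, and in these bulk samples fewer cells of a type and less RNA per cell cannot be told apart.

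Among the sensory neuron channels, Trpv1, the capsaicin receptor, read 9.63, 9.47 and 9.56 log2 units in mutant DRG, against 9.81, 9.89 and 10.09 in control DRG. In epidermis it read 4.06 to 4.77 over all 12 arrays, at the 27.1th to 37.1th percentile of the probe sets on an array, while in DRG it stood at the 90.7th to 94.6th percentile. Trpm3, a heat-activated channel that is also opened by pregnenolone sulfate, read 8.57, 8.76 and 8.74 log2 units in mutant DRG and 8.97, 9.0 and 9.05 in control DRG, against a range of 4.24 to 4.54 over the 12 epidermis arrays. Trpm8, the cold and menthol receptor, read 8.31, 8.30 and 8.20 log2 units in mutant DRG and 8.54, 8.26 and 8.45 in control DRG. Its epidermal range was 3.60 to 3.98 log2 units, at the 19.8th to 24.6th percentile, below background on every array. With Trpa1, these channels thus lay in the upper part of the array in DRG and in its lower part in epidermis.

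The channels best known from keratinocytes were placed the other way round. Trpv3, a warmth-sensitive calcium-permeable channel, read 7.48, 7.44 and 7.30 log2 units in CFA mutant epidermis and 7.40, 7.25 and 7.15 in CFA control epidermis, and 7.66, 7.72 and 7.70 in naïve mutant epidermis and 7.71, 7.74 and 7.70 in naïve control epidermis. In DRG it read 6.01, 5.90 and 5.99 in mutant mice and 5.95, 6.04 and 6.02 in control mice, which is only 0.09 to 0.15 log2 units above the array backgrounds. Its percentile rank was 74.7 to 81.0 in epidermis and 38.0 to 39.4 in DRG. The mutant replicate 1 and control replicate 3 ganglia, which held more keratinocyte transcripts, did not stand out for Trpv3. Trpv4, an osmosensitive and warmth-sensitive channel of keratinocytes and other epithelia, read 6.54 to 7.30 log2 units over the epidermis arrays and 6.46 to 6.71 over the DRG arrays, at the 66.5th to 75.9th percentile in epidermis and the 48.0th to 53.2th in DRG.

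Trpv1 and Trpv3 are neighbours on chromosome 11, on the same strand, and of the pair Trpv1 was below background on all but 1 epidermis array and Trpv3 close to background in DRG. Their promoters are therefore shown, with those of Trpm8, which was above background in DRG only, and of Trpc1, which was above background in both tissues. Each sequence runs 5′ to 3′, over 250 bases before and 50 bases after the start site, and comes from RefSeq (build GRCm38.p6), in which 7 of the 9 channels had a matching entry. Capitals mark 3 motifs searched on both strands: the TATA box, with the letters TATAAA, the GC box, with the letters GGGCGG, and the AP-1 site, with the letters TGANTCA. The positions are Trpv1, chr11:73233899-73234198, plus strand; Trpv3, chr11:73267270-73267569, plus strand; Trpm8, chr1:88306485-88306784, plus strand; and Trpc1, chr9:95750299-95750598, minus strand.
Trpv1: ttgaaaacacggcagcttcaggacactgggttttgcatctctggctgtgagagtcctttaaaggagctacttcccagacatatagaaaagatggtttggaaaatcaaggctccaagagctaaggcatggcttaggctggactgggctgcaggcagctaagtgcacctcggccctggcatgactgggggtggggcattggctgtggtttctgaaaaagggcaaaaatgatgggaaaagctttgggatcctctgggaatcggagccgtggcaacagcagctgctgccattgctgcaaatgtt
Trpv3: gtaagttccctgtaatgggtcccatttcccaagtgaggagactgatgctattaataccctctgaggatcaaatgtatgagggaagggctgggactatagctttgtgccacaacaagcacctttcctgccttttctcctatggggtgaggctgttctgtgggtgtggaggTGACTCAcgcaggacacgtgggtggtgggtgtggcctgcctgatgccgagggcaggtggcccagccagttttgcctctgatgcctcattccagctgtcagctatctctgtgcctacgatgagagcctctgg
Trpm8: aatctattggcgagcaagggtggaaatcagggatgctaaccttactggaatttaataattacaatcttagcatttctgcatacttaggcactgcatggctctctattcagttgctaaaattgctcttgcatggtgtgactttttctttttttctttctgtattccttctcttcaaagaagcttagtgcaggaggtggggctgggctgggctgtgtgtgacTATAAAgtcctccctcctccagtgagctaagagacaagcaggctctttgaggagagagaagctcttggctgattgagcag
Trpc1: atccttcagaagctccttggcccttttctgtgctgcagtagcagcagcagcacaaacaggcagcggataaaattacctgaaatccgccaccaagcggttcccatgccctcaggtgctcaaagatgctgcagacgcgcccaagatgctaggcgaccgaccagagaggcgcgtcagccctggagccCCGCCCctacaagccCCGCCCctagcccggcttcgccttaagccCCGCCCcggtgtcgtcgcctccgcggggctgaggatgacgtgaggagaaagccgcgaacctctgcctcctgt
The Trpm8 promoter held a TATA box that begins 30 bases before the start site, and 13.6% of the 32851 promoters in the table hold that motif somewhere in their window. The Trpc1 promoter held 3 GC boxes, all on the opposite strand, against 35.7% of all promoters with at least 1, and 22 CpG dinucleotides, against a median of 7 over all promoters. The Trpv3 promoter held 1 AP-1 site, which begins 81 bases before the start site and is present in 7.81% of all promoters, while the Trpv1 promoter held none of the 3 motifs. Trpv1 and Trpv3 had 4 CpG dinucleotides each and Trpm8 had 1. The promoters not printed followed no division by tissue. Trpm3, also above background in DRG only, held none of the 3 motifs in either of its 2 entries, with 21 and 10 CpG dinucleotides. Trpv2, above background in both tissues, had 2 to 7 CpG dinucleotides over its 3 entries and a TATA box, beyond the start site, in 1 of them, and Trpv4, also above background in both, had 3 GC boxes and 30 CpG dinucleotides. The motifs were picked with the sequences in view, and a match is a description of the letters only.

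Trpv2, Trpm4 and Trpc1 were measured in both tissues. Trpv2, a channel of large-diameter sensory neurons and of macrophages, read 9.30, 9.11 and 9.16 log2 units in mutant DRG and 9.24, 9.07 and 9.29 in control DRG, with full overlap. In epidermis it was 0.22 to 0.69 log2 units above background, and below the 99th percentile of the odorant and vomeronasal receptor probe sets on at least 1 array of each group. Trpm4, which carries sodium once intracellular calcium rises, read 7.30, 7.24 and 7.22 log2 units in mutant DRG and 7.24, 7.05 and 7.06 in control DRG. Trpc1, a subunit that forms channels with other Trpc proteins, read 8.30, 8.44 and 8.24 log2 units in mutant DRG and 8.41, 8.17 and 8.16 in control DRG, and 5.57 to 6.27 over the epidermis arrays.

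**Figure D2:**
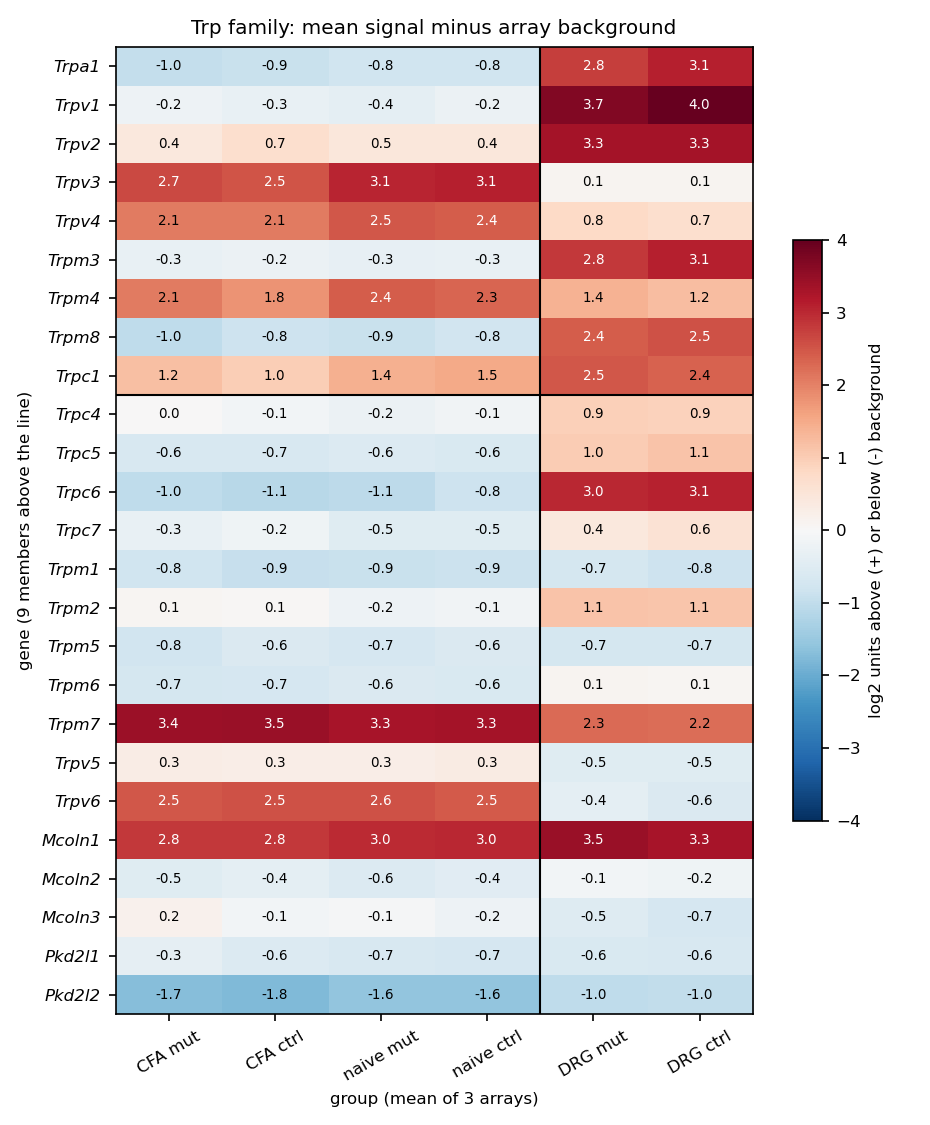
Mean signal of 3 arrays minus the array background, in log2 units (colour and printed value), for the 9 channels above the line and 16 other Trp family genes below it (rows), in the 6 groups (columns). Each row is to be read across its own groups and not against other rows, since probe sets differ in brightness. Rows that are red only in the 2 DRG columns include Trpa1, Trpv1, Trpm3, Trpm8 and Trpc6, and Trpv6 is red only in the 4 epidermis columns.

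Of the other Trp family genes 16 were measured, some with a pattern seen among the 9 channels and some with another. Trpc5, Trpc6 and Trpc7 were above background on every DRG array and on 0 epidermis arrays. Trpc6, a diacylglycerol-activated channel, read 9.01, 8.83 and 8.74 log2 units in mutant DRG and 8.97, 8.95 and 9.02 in control DRG. Trpv5 and Trpv6, the calcium-selective channels of absorptive epithelia, were above background on all 12 epidermis arrays and on 0 of 6 DRG arrays, and Trpv6 read 6.94 to 7.47 log2 units in epidermis. Trpm7, a channel with its own kinase domain, and the lysosomal channel gene Mcoln1 were above background on every array. A further 5 genes (Trpm1, Trpm5, Mcoln2, Pkd2l1 and Pkd2l2) were above background on 0 arrays of either tissue, and Trpc4, Trpm2, Trpm6 and Mcoln3 on some arrays of a tissue. No test between tissues was made, for the reason given above.

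Inflammation was compared next, as CFA against naïve epidermis of the same genotype. In control mice Trpv3, Trpm4 and Trpc1 fell and Trpv2 rose with CFA, so that 4 of the 9 channels passed the threshold (limma, adjusted p under 0.05 over all 23410 probe sets with a gene). Over all probe sets 6150 passed, or 26.3%, with 2683 higher (11.5%) and 3467 lower (14.8%). The count of channels thus stands against a large background of change, in which 43.6% of calls were higher and 56.4% lower, a split that became 30.8% and 69.2% after each array was centred on its median. In mutant mice only Trpv3 passed, and it fell, where 26.0% of all probe sets passed and 13.1% passed as lower. The other 5 channels did not pass in either genotype. Of these, Trpv4 was above background on all 12 epidermis arrays, Trpa1, Trpm3 and Trpm8 were below it on all 12, and Trpv1 was above it on 1 of the 12. The median log2 fold change of the 9 channels was 0.05 in control mice and -0.04 in mutant mice, against 0.03 and 0.04 over all probe sets.

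Trpv3 fell by 0.29 on the log2 scale in mutant mice (1.22-fold, 95% interval 1.08- to 1.38-fold, adjusted p = 0.027) and by 0.45 in control mice (1.36-fold, interval 1.18- to 1.57-fold, adjusted p = 0.0068). All 3 CFA arrays lay below all 3 naïve arrays in both genotypes, and the 6 naïve arrays, at 7.66 to 7.74 log2 units, spanned much less than the 6 CFA arrays, at 7.15 to 7.48. In order of level, naïve control (7.71 ± 0.02, SD, n = 3) and naïve mutant (7.69 ± 0.03) did not differ beyond their spread, nor did CFA mutant (7.41 ± 0.09) and CFA control (7.27 ± 0.12). The control call held on leaving out any 1 of the 6 arrays, with adjusted p of 0.0047 to 0.030. The mutant call was lost without naïve mutant replicate 1, 2 or 3 (adjusted p of 0.064, 0.078 and 0.074) and without CFA mutant replicate 2 or 3 (0.054 and 0.068), at log2 fold changes of -0.30 to -0.23.

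Trpm4 read 6.53, 6.44 and 6.60 log2 units in CFA control epidermis, against 7.03, 6.80 and 6.91 in naïve control epidermis. The groups did not overlap, and the fall of 0.39 on the log2 scale (1.31-fold, interval 1.13- to 1.52-fold) had an adjusted p of 0.015. In mutant mice it read 6.89, 6.77 and 6.79 with CFA against 6.92, 7.14 and 7.09 without, a log2 fold change of -0.23 that missed the threshold (adjusted p = 0.077). The control call was lost without naïve control replicate 1 (log2 fold change -0.33, adjusted p = 0.066) and without CFA control replicate 2 (-0.35, adjusted p = 0.052).

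Trpc1 read 5.79, 5.77 and 5.57 log2 units in CFA control epidermis, against 6.13, 6.27 and 5.92 in naïve control epidermis, without overlap. Its fall of 0.40 on the log2 scale (1.32-fold, interval 1.10- to 1.57-fold, adjusted p = 0.031) was lost without naïve control replicate 1 or 2 (adjusted p of 0.089 and 0.11) and without CFA control replicate 2 or 3 (0.054 and 0.085). In mutant mice Trpc1 read 5.91, 5.93 and 5.99 with CFA against 6.22, 6.12 and 5.82 without, and the groups overlapped (log2 fold change -0.11, adjusted p = 0.51).

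Trpv2 was the only one of the 9 channels that rose. It read 5.44, 5.41 and 5.40 log2 units in CFA control epidermis, against 4.81, 5.14 and 5.15 in naïve control epidermis, 1.30-fold higher (log2 fold change 0.38, interval 0.14 to 0.62, adjusted p = 0.029). Naïve control replicate 1 was the lowest array, and without it the log2 fold change was 0.27 with an adjusted p of 0.098. The call was also lost without CFA control replicate 1, 2 or 3 (adjusted p of 0.069, 0.068 and 0.056). In mutant mice Trpv2 read 5.13, 5.16 and 5.24 with CFA against 5.11, 5.0 and 5.18 without, and the groups overlapped (log2 fold change 0.08, adjusted p = 0.48). Macrophages express Trpv2, and of 14 macrophage and Langerhans cell markers 6 rose and 1 fell with CFA in control epidermis, against 1 that rose and 2 that fell in mutant epidermis. Over all probe sets 11.5% rose and 14.8% fell in control epidermis, and 12.9% rose and 13.1% fell in mutant epidermis. Lyz2 was among the 6 and was the 1 that rose in mutant mice. The macrophage marker Cd68 went the other way, with log2 fold changes of -1.77 in control and -1.73 in mutant epidermis. The mean of the markers was 6.13 to 6.33 log2 units in CFA control epidermis and 6.06 to 6.10 in naïve control epidermis, with Adgre1, Lyz2 and Mrc1 at background on every array of both groups. The part of these cells in the Trpv2 result was not tested.

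Trpv4 did not pass in either genotype. In mutant mice it read 6.79, 6.96 and 6.73 log2 units with CFA against 7.10, 7.30 and 6.98 without (log2 fold change -0.30, interval -0.53 to -0.06, adjusted p = 0.069), and in control mice 7.02, 6.88 and 6.54 with CFA against 6.91, 7.08 and 7.05 without (log2 fold change -0.20, interval -0.49 to 0.09, adjusted p = 0.28). Keratinocyte markers went both ways with CFA. Of 14, 4 rose and 5 fell in mutant epidermis and 2 rose and 6 fell in control epidermis. Over all probe sets 12.9% rose and 13.1% fell in mutant epidermis, and 11.5% rose and 14.8% fell in control epidermis. The mean level of the 14 markers was 10.54 to 10.57 log2 units in CFA mutant and 10.54 to 10.74 in CFA control epidermis, against 11.33 to 11.37 in naïve mutant and 11.26 to 11.40 in naïve control epidermis. Falls included Flg2, Cdsn, Klk7 and Lor, products of the outer layers, and rises Krt14 and Trp63, products of the basal layer, in control mice. In mutant mice Flg2, Cdsn, Klk7 and Lor also fell, and the rises were Krt5, Krt14, Krt16 and Trp63. The part of these cells in the results for Trpv3, Trpm4 and Trpc1 was not tested.

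**Figure D3:**
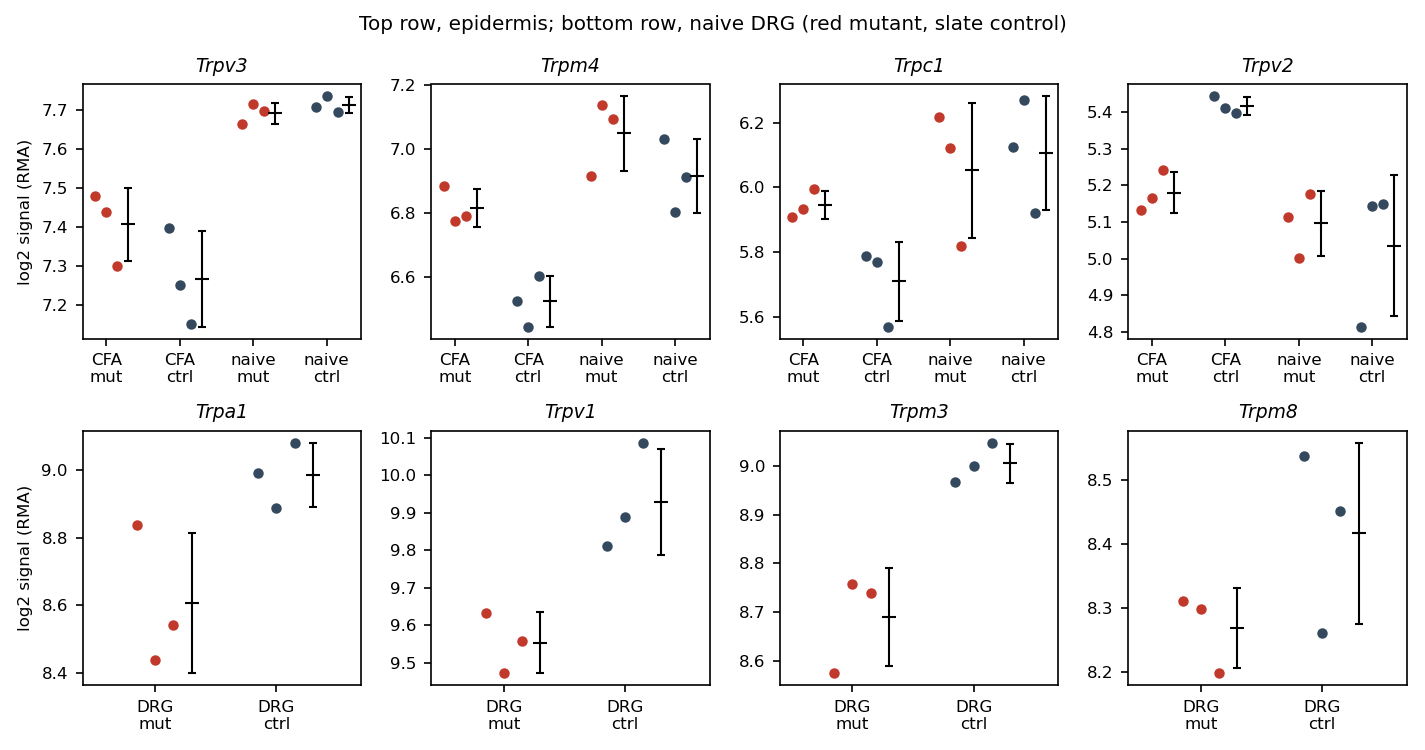
Log2 signal (y axis, a different range in each panel and not starting at 0) on each array for 4 channels in epidermis (top) and 4 in naïve DRG (bottom), by group (x axis). Points are arrays (red mutant, slate control) and black marks are the mean ± SD of 3 arrays. The CFA control arrays of Trpm4, Trpc1 and Trpv2 stand apart from the naïve control arrays, and for Trpa1, Trpv1 and Trpm3 every mutant DRG array lies below every control DRG array.

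The genotypes were then compared within each tissue and state. In naïve epidermis 0 of 9 channels passed in limma, where 7 of all probe sets passed (0.0299%). An unadjusted p under 0.05 was found for 0 of 9 channels and for 8.94% of all probe sets. The log2 fold changes ran between -0.10 for Trpm8 and 0.13 for Trpm4, and Trpv3 differed by -0.02 (interval -0.16 to 0.12). In CFA epidermis 0 of 9 passed, where 0.179% of all probe sets passed, and 3 of 9 had an unadjusted p under 0.05, against 8.96% of all probe sets. Those 3 were Trpm4 (log2 fold change 0.29, interval 0.09 to 0.50, adjusted p = 0.34), Trpc1 (0.24, interval 0.02 to 0.45, adjusted p = 0.51) and Trpv2 (-0.24, interval -0.43 to -0.04, adjusted p = 0.44). For each of these the mutant and control arrays did not overlap, as was the case for 14.3% of all probe sets. These contrasts share the CFA control arrays with the CFA comparison above, in which the same 3 channels passed, so the values are not independent of each other. Among the 14 macrophage and Langerhans cell markers, 2 passed in limma, Csf1r and Fcgr3. They were lower in mutant than in control CFA epidermis, by 0.78 and 1.02 on the log2 scale. Lyz2, Cd14 and Cd68 went the other way without passing, with log2 fold changes of 0.39, 0.26 and 0.07. The mean of all 14 was 5.94 to 6.04 log2 units in CFA mutant epidermis, against 6.13 to 6.33 in CFA control epidermis. Their part in the Trpv2 value was not tested.

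The difference between genotypes in the CFA response was tested as an interaction. It passed for 0 of 9 channels in limma and for 0.0256% of all probe sets. At an unadjusted p under 0.05 there was 1 channel of 9 (Trpv2), against 8.26% of all probe sets. For Trpv2 the response in mutant mice minus that in control mice was -0.30 on the log2 scale (interval -0.58 to -0.01, adjusted p = 0.59). For Trpv3 the difference was 0.16 (interval -0.09 to 0.41, adjusted p = 0.74), for Trpm4 0.16 (interval -0.11 to 0.43, adjusted p = 0.77) and for Trpc1 0.29 (interval -0.06 to 0.64, adjusted p = 0.68). That Trpm4, Trpc1 and Trpv2 passed in control and not in mutant mice is thus not shown to be a difference between the genotypes.

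In DRG, 0 of 9 channels passed in limma, where 0.0726% of all probe sets passed, and 3 of 9 had an unadjusted p under 0.05, against 7.15% of all probe sets. For Trpa1, Trpv1 and Trpm3 every mutant array lay below every control array, as was the case for 6.77% of all probe sets. The log2 fold change was -0.38 for Trpa1 (interval -0.63 to -0.13, adjusted p = 0.48), -0.37 for Trpv1 (interval -0.58 to -0.17, adjusted p = 0.32) and -0.32 for Trpm3 (interval -0.48 to -0.15, adjusted p = 0.32). Leaving out 1 array at a time kept the Trpa1 value between -0.50 and -0.30, that of Trpv1 between -0.43 and -0.29 and that of Trpm3 between -0.35 and -0.26, none with an adjusted p under 0.05. Without the 2 arrays with more keratinocyte transcripts the values were -0.45, -0.33 and -0.24 for the 3 channels in that order. The other 6 channels differed by -0.15 (Trpm8) to 0.13 (Trpm4).

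Nociceptor markers did not move as a group with these 3 channels. Their mean over 17 genes was 9.61 to 9.78 log2 units in mutant DRG and 9.58 to 9.74 in control DRG, 0 passed in limma, with 3 at an unadjusted p under 0.05, and their median log2 fold change was 0.04, against 0.0 over all probe sets. Within the list, Tac1, which encodes substance P, and Gfra3, the artemin receptor, had log2 fold changes of -0.28 (adjusted p = 0.47) and -0.33 (adjusted p = 0.45), with every mutant array below every control array. Calcb, which encodes a calcitonin gene-related peptide, had -0.12 (adjusted p = 0.75), and the receptor genes Gfra2 and Ret had 0.33 and 0.22 (adjusted p of 0.70 and 0.73), with overlapping arrays for all 3. Scn10a and Scn9a, sodium channels of nociceptors, had 0.07 and 0.05, and Kcnk18, a potassium channel, had 0.29, with every mutant array above every control array (adjusted p = 0.56). Markers of mast cells lay higher in the mutant ganglia. Their mean over 8 genes was 6.25 to 6.46 log2 units in mutant DRG and 6.03 to 6.16 in control DRG, without overlap, and their median log2 fold change was 0.22. In limma 0 of 8 passed and 4 had an unadjusted p under 0.05, where the share over all probe sets at that level was 7.15%. The log2 fold changes were 0.72 for the protease gene Mcpt4, 0.57 for Cpa3, 0.27 for Hdc and -0.03 for Kit (adjusted p of 0.42, 0.60, 0.68 and 0.94), and Fcer1a and Mrgprb2 were below background on every DRG array. Fcer1a is nonetheless among the 4 with an unadjusted p under 0.05. The mean of the 8 genes also includes Fcer1a, Mrgprb2 and Cma1, which was above background on 1 mutant and 0 control arrays. The part of any neuron type or of mast cells in the Trpa1, Trpv1 and Trpm3 values was not tested.

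**Figure D4:**
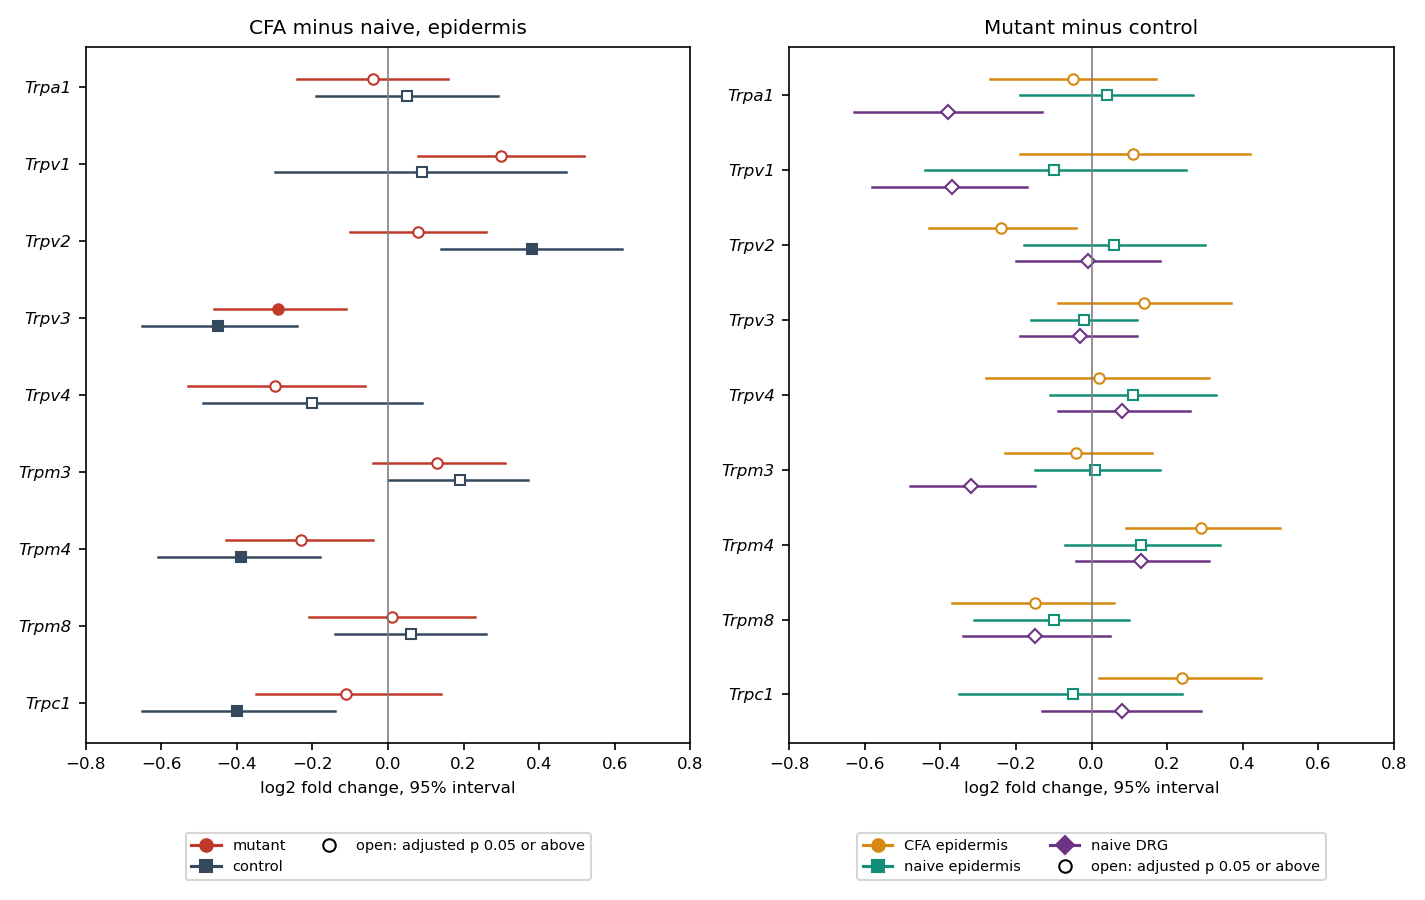
Log2 fold change (x axis) with its 95% interval for each channel (y axis), for CFA minus naïve epidermis in each genotype (left) and mutant minus control in each tissue and state (right). Filled symbols have an adjusted p under 0.05, which on the left are Trpv3 in both genotypes and Trpv2, Trpm4 and Trpc1 in control mice, and there are none on the right.

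In the rest of the family, Trpm7 rose with CFA in mutant epidermis by 0.24 on the log2 scale (adjusted p = 0.048). Trpm2, an oxidant-sensitive channel of immune cells, and Trpc4 also passed as higher (adjusted p of 0.0091 and 0.0084), and both were above background on 2 of 3 CFA mutant arrays and on 0 of 3 naïve mutant arrays. Against the higher of background and the probe set's own signal on each naïve mutant array, Trpm2 was at least 1.13-fold and Trpc4 at least 1.09-fold higher. In control epidermis Trpc7 passed as higher (adjusted p = 0.0031) but lay below background on all 6 arrays, and no fold change is given. In all, 3 of 16 rose and 0 fell in mutant mice, and 1 of 16 rose and 0 fell in control mice. Over all probe sets 12.9% passed as higher and 13.1% as lower in mutant mice, and 11.5% and 14.8% in control mice. With so few genes the counts are no result about the family. In each comparison of genotypes 0 of 16 passed in limma, with 0 at an unadjusted p under 0.05.

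Of 25 measured genes that act on Trp channels or partner with them, 3 rose and 1 fell with CFA in mutant epidermis, where 26.0% of all probe sets passed, and 3 rose and 5 fell in control epidermis, where 26.3% did. These shares are below and near those over all probe sets, so the counts are no result about the group. Falls in control mice included Cdk5r1, the activator of the kinase Cdk5 that phosphorylates Trpv1 (1.68-fold, adjusted p = 0.00034), and the store-operated calcium entry genes Stim1 (1.35-fold, adjusted p = 0.010), the calcium sensor of the endoplasmic reticulum, and Orai1 (1.37-fold, adjusted p = 0.013), the channel that Stim1 opens. Akap5, a scaffold that holds kinases at Trpv1, was 1.32-fold lower (adjusted p = 0.042). In mutant mice Orai1 was 1.26-fold lower (adjusted p = 0.022), while Prkce, the epsilon form of protein kinase C, was 1.55-fold higher (adjusted p = 0.012), and Gnaq and Src were 1.28- and 1.27-fold higher (adjusted p of 0.039 and 0.015). The median log2 fold change was 0.03 in mutant and -0.05 in control mice. Between genotypes 0 of 25 passed in naïve epidermis, CFA epidermis or DRG, with 2, 4 and 0 at an unadjusted p under 0.05. The shares over all probe sets at that level were 8.94%, 8.96% and 7.15%.

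Genes that work with Trpv3 in keratinocytes include ligands of the EGF receptor and transglutaminases, the enzymes that cross-link the cornified envelope. Of 13 such genes measured, 1 rose and 7 fell with CFA in each genotype, with a median log2 fold change of -0.54 in mutant and -0.76 in control mice. Over all probe sets 12.9% rose and 13.1% fell in mutant mice, and 11.5% rose and 14.8% fell in control mice. Ereg, which encodes epiregulin, averaged 5.82 ± 0.15 log2 units in CFA mutant and 10.68 ± 0.13 in naïve mutant epidermis, 29.0-fold lower, and 6.32 ± 0.39 in CFA control and 10.84 ± 0.07 in naïve control epidermis, 23.0-fold lower (SD, n = 3 each). Epgn, which encodes epigen, was 2.97-fold lower in mutant and 5.43-fold lower in control mice, where it was above background on only 2 of the 3 CFA arrays, and Tgm5 was 3.12-fold lower in mutant and 3.69-fold lower in control mice, with adjusted p of 0.0059 or below in each case. None of the 13 passed between genotypes in limma, with 1, 5 and 0 at an unadjusted p under 0.05 in naïve epidermis, CFA epidermis and DRG. Over all probe sets the shares at that level were 8.94%, 8.96% and 7.15%.

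Of 21 receptors listed here as acting through Trp channels, 3 rose and 2 fell with CFA in mutant epidermis and 6 rose and 2 fell in control epidermis, against 26.0% and 26.3% of all probe sets called in either direction. Osmr, a receptor subunit for oncostatin M and interleukin-31, averaged 8.73 ± 0.30 log2 units in CFA mutant and 7.18 ± 0.12 in naïve mutant epidermis (2.92-fold higher, adjusted p = 0.00015), and 9.18 ± 0.19 in CFA control and 7.51 ± 0.13 in naïve control epidermis (3.20-fold higher, adjusted p = 1.3e-05). Il13ra1, a receptor chain for interleukin-13, was 1.63-fold higher in mutant and 1.78-fold higher in control mice. Ptger3, a prostaglandin E2 receptor, was 1.75-fold lower in mutant and 1.85-fold lower in control mice, and P2ry2, a nucleotide receptor, was 1.63-fold lower in control mice (adjusted p = 0.0033). Between genotypes 0 of 21 passed, with 2, 3 and 4 at an unadjusted p under 0.05 in naïve epidermis, CFA epidermis and DRG. At that level the shares over all probe sets were 8.94%, 8.96% and 7.15%.

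The genes whose signal ran most closely with each channel were sought among 13949 probe sets above background on all 12 epidermis arrays. Trpv3 ran closest to Aqp5, a water channel (r = 0.992), Hspb1, a small heat shock protein (r = 0.985), and Nebl (r = 0.982). Trpm4 ran closest to Golga2 (r = 0.956), Arih2 (r = 0.954) and Trim41 (r = 0.954), and Trpv2 to Ier5l (r = 0.962), Fndc11 (r = 0.919) and Crybb3 (r = 0.916). Trpc1 reached 0.905 with Kbtbd11 and Trpv4 0.898 with Abtb1. The 12 arrays share the step between naïve and CFA skin, and over so many genes the highest correlations are a description only. Over the 6 DRG arrays the best match reached 0.984 or more for each of the 9 channels, which so few arrays make common, and none is named.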

How the data were processed

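Per the labels and the paper's methods, the authors deposited the RMA log2 signal per probe set of each array, and made their own comparison by ANOVA in Partek software. Array means differed by tissue, as given above, so the deposited values do not share a common distribution over the 18 arrays. These log2 values were taken without further change, over 35556 probe sets with 0 missing values and a range of 1.27 to 13.87. Arrays have no read depth, so their number limits the precision. The genome build behind the array annotation is stated in none of the sources used here.

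Names came from the platform annotation (21789 probe sets with exactly 1 gene, and 1621 with several, from which no gene is named). Group comparisons were fitted with limma 3.58.1 (lmFit, eBayes; R 4.3.3) on only the arrays of the groups compared, the interaction on all epidermis arrays. Tests were two-sided, with Benjamini-Hochberg adjustment over 23410 probe sets with a gene, and genes with several probe sets were represented by the brightest. Tested on simulated data (23410 probe sets per comparison), the fit recovered 95% of 2-fold and 57% of 1.5-fold changes between genotypes in DRG, 91% and 53% in naïve epidermis, 81% and 51% in CFA epidermis and 78% and 26% for the interaction, and for CFA 91% and 55% in mutant and 87% and 45% in control epidermis. The simulation changed only a small share of the probe sets, with independent normal noise. It thus does not give the power for CFA, where many probe sets passed, and no change below 1.5-fold was simulated. Tables and plots used Python 3.11.15, numpy 2.4.6, pandas 2.3.3 and matplotlib 3.10.9.

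The channels and gene lists were chosen with earlier results of these data known. Named genes are the 9 channels, up to 4 genes per list and comparison (those called with the largest change, otherwise the 2 with the smallest p), the genes most like a channel, and cell type markers that move with a result. Whether the ganglia and the skin came from the same mice is unknown. The alternatives tried were quantile normalization on top of RMA, centring on the array median, a filter on dim probe sets, testing every probe set of the table, trend and robust moderation, an ordinary ANOVA, a replicate block, leaving out each array, a joint fit of the epidermis groups, DRG without the arrays rich in keratinocyte transcripts, and other background thresholds. List genes that share their probe sets with other genes, or have none in the annotation used, were not analysed here.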

Additional observations from a re-analysis of the deposited data

How the results depend on the processing

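In each comparison of genotypes 0 of the 9 channels passed under every alternative. With CFA, the count of channels called was 2 in control epidermis over all probe sets of the table and under the ordinary ANOVA, and in mutant epidermis 0 after quantile normalization, 3 after median centring and 2 with trend and robust moderation. Leaving out 1 array gave 1 to 4 channels in control and 0 to 1 in mutant epidermis. The 5 calls of single channels were recomputed under 70 alternatives in all (leaving out 1 array included): 47 kept the call, 23 lost it and 0 reversed. Of 711 alternatives to the 49 values that were not called, 5 gained a call and 3 changed sign by more than 1 standard error. Trpv2 in control epidermis lost its call after median centring, over all probe sets, under the ordinary ANOVA and with the replicate block (adjusted p of 0.055, 0.063, 0.10 and 0.052), Trpc1 over all probe sets and under the ordinary ANOVA (0.067 and 0.12), and Trpv3 in mutant epidermis after quantile normalization and with the replicate block (0.061 and 0.055). The cause was not tested.

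The counts over all probe sets moved more. Under the ordinary ANOVA they were 3895 for CFA in control and 3859 in mutant epidermis, 0 for genotype in naïve epidermis, in CFA epidermis and for the interaction, and 1 in DRG. Over all probe sets of the table they were 0 in naïve epidermis, 8 in CFA epidermis, 7 in DRG and 0 for the interaction. Trend and robust moderation gave 79 in naïve epidermis, 29 in DRG and 15 for the interaction. Leaving out dim probe sets gave 11 in naïve epidermis, and the joint fit of 4 epidermis groups gave 16 in naïve and 246 in CFA epidermis. DRG without the 2 arrays with keratinocyte transcripts gave 2. After median centring the 6 interaction calls were 4 higher and 2 lower, against 3 and 3. Leaving out 1 array gave 4345 to 5844 and 4219 to 5194 calls for CFA in control and mutant epidermis, and 0 to 10 in naïve epidermis, 15 to 146 in CFA epidermis, 8 to 203 in DRG and 2 to 87 for the interaction.

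Whether arrays with the same replicate number form pairs could not be settled from 3 arrays per group. The deviations of such arrays from their group means correlated at -0.236 to 0.233. With the replicate block, 3 channels were called in control and 1 in mutant CFA epidermis, where Trpv4 (adjusted p = 0.039) took the place of Trpv3. The counts between genotypes over all probe sets were 0 in naïve epidermis, 289 in CFA epidermis and 51 in DRG, against 7, 42 and 17 without the block.

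With background set at the 99th percentile of odorant and vomeronasal receptors, 3 of 9 channels in place of 5 were above it in CFA control epidermis and 4 in each other epidermis group, and in DRG 8 were in mutant and 7 in control mice, without Trpv3. At the 90th percentile or at the median plus 1, 5 to 7 were above it in epidermis and 9 in DRG. Trpm3 was added at the 90th percentile in every epidermis group except naïve control, and Trpv1 in CFA mutant epidermis. At the median plus 1 both Trpm3 and Trpv1 were above it in every epidermis group. Trpa1 and Trpm8 were counted in no epidermis group at any of these thresholds, a count that needs all arrays of a group. Percentile ranks among probe sets of 1 gene shifted by -9.4 to 0.8.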

Other observations

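On the list of receptors taken to act through Trp channels was Mrgprb4, a receptor of neurons that respond to stroking of hairy skin. Whether it acts through a Trp channel was not tested here. Mrgprb4 averaged 9.01 ± 0.24 log2 units in mutant DRG and 7.71 ± 0.40 in control DRG (SD, n = 3 each). The difference was 2.46-fold and missed the threshold (adjusted p = 0.071), and every mutant array lay above every control array. Osmr had log2 fold changes for mutant minus control of -0.32 in naïve epidermis, -0.46 in CFA epidermis and -0.41 in DRG, with adjusted p of 0.47, 0.41 and 0.31.

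Hbegf, an EGF receptor ligand that keratinocytes release, averaged 7.74 ± 0.41 log2 units in naïve mutant and 8.59 ± 0.22 in naïve control epidermis, a log2 fold change of -0.86 that missed the threshold (adjusted p = 0.39). The CFA response of Hbegf in mutant minus that in control mice was 1.28 on the log2 scale, which also missed the threshold in limma (adjusted p = 0.34). Both values use the same naïve arrays, so they are not independent of each other.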
